A study of Homo sapiens with 4 samples.

Results

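The MYC, MAX and MXD network is a small family of transcription factor genes, described here through 10 members: MYC, MYCL and MYCN, which encode activators; MAX, their common partner; MXD1, MXD3, MXD4, MXI1 and MNT, which encode repressors; and MLX, a partner related to MAX. The members were taken by gene symbol, and all 10 were among the 26348 genes listed in the deposited expression table. The family was picked with MYC's own field response in view, so the values of MYC in exposed against control cells are given as a description, and MYC is left out of the counts of members called. The other members were chosen by name from the family.

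Poly(A) RNA was sequenced from 2 human cell lines with and without 2 h in a magnetic field, with 3 libraries for each of 4 groups; the labels list each group as 1 sample, and the series' design text gives 3 replicates for it. A549 is a line from a lung carcinoma, and 293T is a transformed line of embryonic kidney origin. The groups were A549 cells exposed to the field for 2 h, A549 controls without the field, 293T cells exposed for 2 h, and 293T controls without the field. Within each line exposed cells were compared with controls, and the lines were compared in their controls and in their differences with exposure. The sources used here give neither the field's strength nor its form. The labels name no genetic change or drug in any group, and nothing in them shows that the libraries within a group are independent cultures; p-values here reflect library-to-library spread, which may be technical.

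MYC, MYCL and MYCN proteins bind DNA only as dimers with MAX, at the E-box motif CACGTG, and recruit histone acetyltransferases that raise transcription. MXD proteins and MNT compete for MAX, bind the same motif, and recruit SIN3 and histone deacetylases that lower it. MXD genes are classically switched on as cells stop dividing, when MYC is switched off, and MYC mRNA and protein both turn over quickly. MLX carries the sugar-sensing factors MondoA (MLXIP) and ChREBP (MLXIPL) to DNA and also pairs with MNT and some MXD proteins.

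Values are FPKM, the fragments assigned to a gene scaled by its length and by the fragments in the library, so levels can be set beside each other between genes. The 12 libraries held from 37171616 to 38883963 assigned fragments, recovered from the steps of the FPKM values as the smallest whole numbers that fit, a ratio of 1.05 between the deepest and the shallowest. Differences and their standard errors are on the log2(FPKM + 1) scale, which understates the change of genes at low levels. A gene was called when its adjusted p was under 0.05 in limma, adjusted by the Benjamini-Hochberg method over 13811 genes with at least 0.5 FPKM in at least 3 libraries. Of the members, 9 passed this filter and MYCN did not; MYCL passed it only through the 293T libraries. All 6 A549 markers that the table lists, of 7 chosen, were higher in A549 controls and all 7 markers of 293T were higher in 293T controls, for example the keratin KRT7 at 604 FPKM in A549 and 0.642 FPKM in 293T. PAX2, a kidney marker, was at only 0.587 FPKM in 293T controls. Transcripts encoded by mitochondrial DNA took 7.69% to 7.96% of reads in exposed A549 and 8.35% to 9.28% in A549 controls, and 4.37% to 4.45% in exposed 293T and 4.85% to 5.21% in 293T controls. In both lines exposed library 3 lay nearest to the controls on the first principal component.

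Of the 9 members with a RefSeq promoter entry, 3 held the E-box CACGTG in a window of 250 bases before a listed start. MYC had no such entry. The 3 are shown because E-boxes are the sites that the network's own proteins bind. The windows are from RefSeq on GRCh38.p14, each read 5′ to 3′ on the gene's own strand, with the E-box in capitals, and both strands were searched for this palindrome. They are MLX at chr17:42566850-42567099 on the plus strand, MNT at chr17:2401061-2401310 on the minus strand and MXD4 at chr4:2262110-2262359 on the minus strand. The window of MXD1, at chr2:69914859-69915108 on the plus strand, is shown beside them because MXD1 had the largest ratio of exposed to control among the members called in each line, and it holds no CACGTG.
MLX: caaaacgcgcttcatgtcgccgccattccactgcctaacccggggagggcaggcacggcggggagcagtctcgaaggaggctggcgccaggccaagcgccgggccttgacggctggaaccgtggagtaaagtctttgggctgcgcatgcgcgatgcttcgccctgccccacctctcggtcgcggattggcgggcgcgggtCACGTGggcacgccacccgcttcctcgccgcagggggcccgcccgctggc
MNT: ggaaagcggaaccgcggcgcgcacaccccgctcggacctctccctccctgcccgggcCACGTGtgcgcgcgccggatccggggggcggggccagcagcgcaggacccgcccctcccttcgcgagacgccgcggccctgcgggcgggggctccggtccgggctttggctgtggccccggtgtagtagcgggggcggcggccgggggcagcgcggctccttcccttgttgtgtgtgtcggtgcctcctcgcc
MXD4: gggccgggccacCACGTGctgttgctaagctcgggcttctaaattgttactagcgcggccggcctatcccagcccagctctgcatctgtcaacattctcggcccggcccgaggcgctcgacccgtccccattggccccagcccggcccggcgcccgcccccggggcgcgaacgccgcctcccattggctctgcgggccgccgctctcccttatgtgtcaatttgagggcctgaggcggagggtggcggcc
MXD1: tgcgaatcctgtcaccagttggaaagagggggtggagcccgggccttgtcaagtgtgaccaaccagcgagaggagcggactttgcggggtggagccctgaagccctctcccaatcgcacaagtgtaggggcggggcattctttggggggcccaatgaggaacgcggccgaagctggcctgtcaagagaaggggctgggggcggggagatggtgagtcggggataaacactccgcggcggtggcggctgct
The E-box began 50 bases before the start of MLX, 193 before that of MNT and 238 before that of MXD4. CACGTG stood in 6.34% of 35116 promoter windows of this length and in 8.17% of the 15938 windows of genes tested here, where a gene can have several windows. These shares are per window, whereas the 3 of 9 members are counted per gene. The windows of MAX lie inside its RefSeq span, so the bases before its outermost start were not searched. All but the first window of MXI1 also lie inside the gene. A match is a description of letters, and its absence says nothing about binding. Gene positions below are RefSeq's on the same build; the build named for the deposited values is GRCh38.

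MYC (chr8:127735434-127742951, plus strand) encodes the broadly expressed activator of growth, and its exposed levels lay above those of the controls in A549 and below them in 293T. It had 47.7, 43.0 and 46.8 FPKM in exposed A549 libraries, against 25.96, 26.7 and 26.1 FPKM in A549 controls. It had 15.3, 15.7 and 16.2 FPKM in exposed 293T libraries, against 24.8, 23.0 and 23.0 FPKM in 293T controls. All exposed A549 libraries lay above all A549 controls, and all exposed 293T libraries lay below all 293T controls. Such a separation was common among all genes tested: in A549, 17.1% had exposed libraries wholly above and 32.6% wholly below the controls, in 293T 19.1% and 30.8%, and between the controls 33.2% had A549 wholly above 293T and 56.4% wholly below. MYC averaged 45.8 ± 2.50 FPKM in exposed A549 and 26.3 ± 0.409 FPKM in A549 controls (SD, n = 3 each), 1.74-fold higher with exposure, and 15.7 ± 0.464 FPKM in exposed 293T and 23.6 ± 0.999 FPKM in 293T controls, 1.502-fold lower with exposure. On the log2(FPKM + 1) scale the differences were 0.78 in A549 and -0.56 in 293T, which put them 1.34 apart. These directions are what the family was chosen for. In bulk RNA, a change in the share of cells that express a gene and a change in RNA per cell cannot be told apart. The values rest on 2565 to 8300 MYC reads per library. Among the 1615 genes whose log2 difference was above 0 in A549 and below 0 in 293T, and whose highest group averaged 1 FPKM or more, MYC stood 2nd when ordered by the smaller of the 2 sizes, at 0.557, just behind LOC112268269 at 0.561. This rank uses the values for which the family was chosen, so it is a description only. Over all genes, 0.471% were called higher in A549 and lower in 293T, 0.637% lower in A549 and higher in 293T, 6.32% higher in both lines and 14.2% lower in both.

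**Figure D1:**
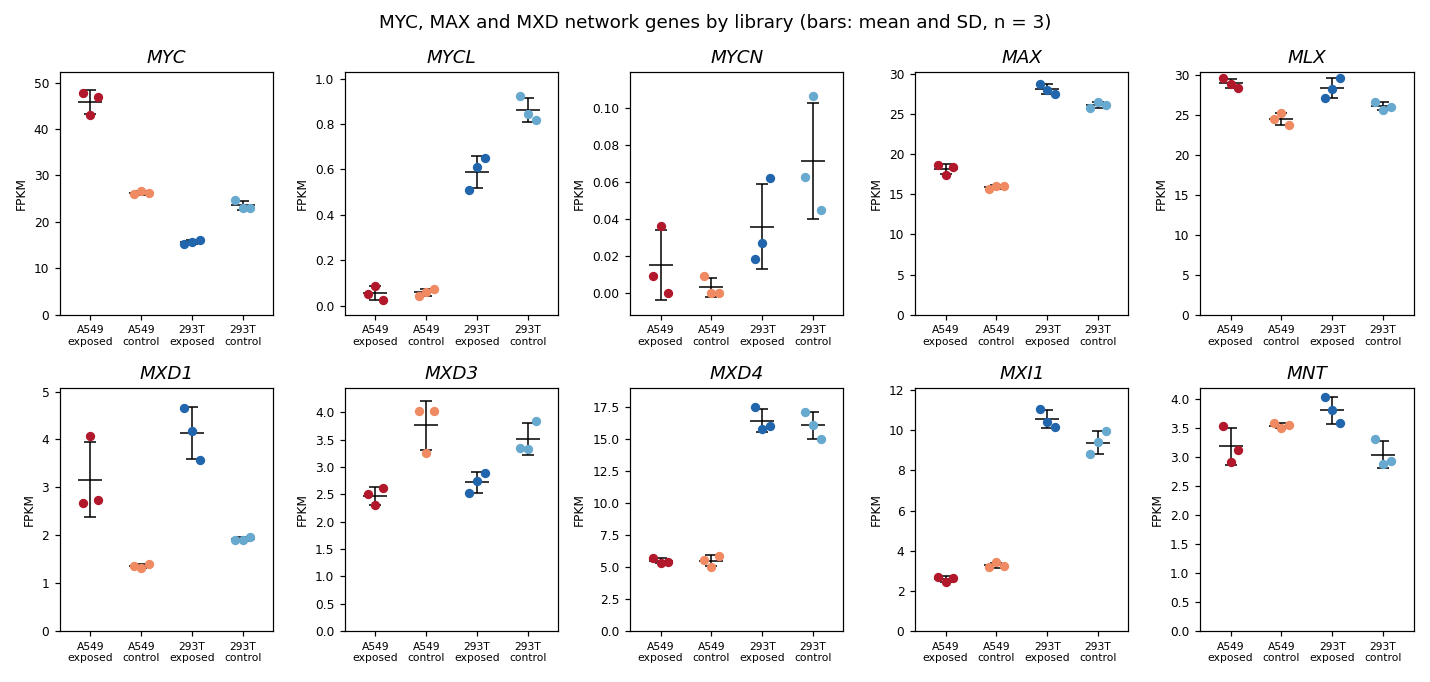
FPKM of the 10 members in each library (y axis, one scale per gene) by group (x axis); points are libraries and black bars the mean and SD (n = 3). MYC averages 45.8 FPKM in exposed A549 and 26.3 FPKM in A549 controls, and 15.7 FPKM in exposed 293T and 23.6 FPKM in 293T controls, while MXD1 is above its controls in both lines.

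MYC's control values also entered the contrasts that chose the family, so its levels in the controls are described without a test. They were higher in A549 than in 293T, at 26.3 ± 0.409 FPKM against 23.6 ± 0.999 FPKM, a ratio of 1.11 and a log2 difference of 0.15 that was 0.025 when FPKM were rescaled to the same sum per library. The control libraries of the lines did not overlap. The exposed groups lay further apart, at 45.8 FPKM in A549 and 15.7 FPKM in 293T, a ratio of 2.92.

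MYCL (chr1:39895428-39901917, minus strand), the family member first known from lung cancer, was near the limit of detection in A549 and low in 293T. It had 0.0535, 0.0873 and 0.0267 FPKM in exposed A549 libraries, against 0.0424, 0.0585 and 0.0744 FPKM in A549 controls, which is 5 to 16 reads per library, and these groups overlapped. In 293T it had 0.510, 0.610 and 0.648 FPKM in exposed libraries, against 0.922, 0.843 and 0.820 FPKM in controls, with every exposed library below every control. MYCL fell in 293T by 1.46-fold (log2 difference -0.23, SE 0.046, adjusted p = 0.00243, limma). In A549 no difference was detectable at this depth (log2 difference -0.0038, 95% interval -0.10 to 0.10, adjusted p = 0.972). At so low a level the log2(FPKM + 1) scale compresses any change, so this value cannot show that MYCL stayed the same. A comparison of the lines on this scale therefore mostly restates the fall in 293T. The difference between the lines was called at 0.22 (adjusted p = 0.0420), but the call was lost without any 1 of 10 of the 12 libraries (adjusted p 0.0548 to 0.0938; the exceptions were exposed replicate 3 of each line). It was also lost with a pseudocount of 0.1 (adjusted p = 0.223), under quantile normalization (0.121), after rescaling to a common sum (0.0652) and in limma-voom (0.706), and it held under 6 of 22 alternatives. Between controls, MYCL was 14.7-fold lower in A549 than in 293T, which is a description because MYCL passed the filter only through 293T. The span of MYCL shares 3671 bases with MYCL-AS1, which had 0 to 0.133 FPKM, so its low values in A549 are uncertain.

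MYCN (chr2:15940550-15947004, plus strand), the paralog known from neuroblastoma, was not detected well enough to compare. It had 5 reads over the 3 exposed A549 libraries and 1 over the A549 controls, and 12 reads over the exposed 293T libraries and 24 over the 293T controls. The 2 to 7 reads per exposed 293T library overlapped the 5 to 12 of the controls. A count of 3 reads corresponds to 0.0266 FPKM, so several of these values lie at or below the limit that a count of 0 allows.

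MAX (chr14:65006101-65102695, minus strand), the partner that MYC, MXD and MNT proteins share, was slightly higher with exposure in both lines. It had 18.7, 17.4 and 18.4 FPKM in exposed A549 libraries, against 15.7, 16.03 and 16.01 FPKM in A549 controls. It had 28.7, 28.0 and 27.4 FPKM in exposed 293T libraries, against 25.7, 26.4 and 26.1 FPKM in 293T controls. The groups did not overlap in either line. MAX rose 1.14-fold in A549 (log2 difference 0.18, SE 0.034, adjusted p = 0.00121, limma). In 293T it rose 1.08-fold (0.10, SE 0.034, adjusted p = 0.0313). The 293T call was lost without exposed replicate 1 or 2 or any control of 293T (adjusted p 0.0526 to 0.103), and when mitochondrially encoded genes were left out of the scaling (adjusted p = 0.0898). Its effects in the lines differed by 0.078 (95% interval -0.026 to 0.18, adjusted p = 0.325). The span of MAX shares 56550 bases with FNTB on the other strand, which had 0.488 to 0.927 FPKM. Between controls MAX was 1.64-fold lower in A549 than in 293T (log2 difference -0.68, adjusted p = 4.02e-10), and MYC stood above MAX in A549 and below it in 293T. The ratio of MYC to MAX was 2.52 ± 0.0457 in exposed A549 and 1.65 ± 0.0184 in A549 controls, and 0.561 ± 0.0287 in exposed 293T and 0.906 ± 0.0507 in 293T controls (SD, n = 3 each); since MYC is part of it, these ratios are a description.

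MXD1 (chr2:69915109-69942945, plus strand), the repressor classically induced when cells leave the cycle, rose in both lines. It had 2.68, 4.06 and 2.73 FPKM in exposed A549 libraries, against 1.36, 1.32 and 1.40 FPKM in A549 controls. It had 4.65, 4.17 and 3.57 FPKM in exposed 293T libraries, against 1.89, 1.90 and 1.97 FPKM in 293T controls. Every exposed library lay above every control of its line, and exposed A549 library 2 was the highest of its group. The rise was 2.32-fold in A549 (log2 difference 0.80, SE 0.11, adjusted p = 1.27e-04, limma). In 293T it was 2.15-fold (0.81, SE 0.11, adjusted p = 2.05e-04). Both calls held under all 24 alternatives tried, with log2 differences from 0.65 to 1.18 in A549 and from 0.73 to 1.09 in 293T. The rises differed by -0.0080, with a 95% interval of -0.34 to 0.32 (adjusted p = 0.982), so an unlike rise of up to about 0.3 on this scale is within the error. In exposed A549 both MYC and this repressor were above their controls, and in exposed 293T the repressor was above its controls where MYC was below. MXD1 overlaps ASPRV1, which lies on the other strand and had 0.0334 to 0.872 FPKM.

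MXD3 (chr5:177305499-177312752, minus strand), a member known for its expression in dividing cells, fell in both lines. It had 2.50, 2.30 and 2.62 FPKM in exposed A549 libraries, against 4.02, 3.25 and 4.03 FPKM in A549 controls. It had 2.52, 2.75 and 2.90 FPKM in exposed 293T libraries, against 3.35, 3.33 and 3.85 FPKM in 293T controls. The groups did not overlap in either line. The fall was 1.52-fold in A549 (log2 difference -0.45, SE 0.073, adjusted p = 4.66e-04, limma). In 293T it was 1.29-fold (-0.28, SE 0.073, adjusted p = 0.0110). The falls differed by -0.18 (95% interval -0.40 to 0.050, adjusted p = 0.304). MXD3 shares 1451 bases with PRELID1 on the other strand, which had 134 to 263 FPKM. The sources used here do not say whether counting used the strand, so the level of MXD3 and its falls are uncertain.

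MXD4 (chr4:2247432-2262109, minus strand) was the most abundant repressor of the family and did not pass the test in either line. It had 5.69, 5.33 and 5.39 FPKM in exposed A549 libraries, against 5.51, 5.02 and 5.88 FPKM in A549 controls. It had 17.5, 15.8 and 15.98 FPKM in exposed 293T libraries, against 17.0, 16.1 and 14.95 FPKM in 293T controls. Exposed and control libraries overlapped in both lines. The log2 difference was 0.0030 in A549 (95% interval -0.13 to 0.13, adjusted p = 0.985, limma) and 0.032 in 293T (95% interval -0.10 to 0.16, adjusted p = 0.726). Its level differed between the lines: it was 2.93-fold lower in A549 controls than in 293T controls (log2 difference -1.40, SE 0.060, adjusted p = 8.99e-11).

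MXI1 (chr10:110207605-110287365, plus strand), an MXD protein that antagonizes MYC and is known to respond to hypoxia, changed in opposite directions in the lines. It had 2.71, 2.44 and 2.65 FPKM in exposed A549 libraries, against 3.17, 3.42 and 3.26 FPKM in A549 controls. It had 11.1, 10.4 and 10.2 FPKM in exposed 293T libraries, against 8.82, 9.40 and 9.95 FPKM in 293T controls. Exposed libraries were all below the controls in A549 and all above them in 293T. MXI1 fell 1.26-fold in A549 (log2 difference -0.25, SE 0.052, adjusted p = 0.00218, limma). It rose 1.12-fold in 293T (0.15, SE 0.052, adjusted p = 0.0333). The difference between the lines was -0.40 (SE 0.073, adjusted p = 0.00457) and held under all 23 alternatives tried. The rise in 293T alone was less firm and was lost under 10 of 24 alternatives. It was lost without exposed replicate 1 or 2 or control replicate 1 or 2 of 293T (adjusted p 0.0663 to 0.140), with mitochondrially encoded genes out of the scaling (0.0617), with a pseudocount of 0.1 (0.0528), with no filter (0.0549) and with each line fitted alone (0.0682). Between controls MXI1 was 2.86-fold lower in A549 than in 293T (log2 difference -1.28, adjusted p = 4.83e-11).

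MNT (chr17:2384073-2401060, minus strand), a broadly expressed repressor that pairs with both MAX and MLX, rose in 293T and did not pass the test in A549. It had 3.54, 2.91 and 3.12 FPKM in exposed A549 libraries, against 3.59, 3.50 and 3.55 FPKM in A549 controls, with overlap. It had 4.04, 3.81 and 3.58 FPKM in exposed 293T libraries, against 3.31, 2.89 and 2.94 FPKM in 293T controls, with every exposed library above every control. The 293T rise was 1.25-fold (log2 difference 0.25, SE 0.061, adjusted p = 0.00721, limma). The A549 difference was -0.12 (adjusted p = 0.142); without exposed A549 replicate 1 it was -0.18 (adjusted p = 0.0396), a fall. A549 minus 293T, the effects on MNT differed by -0.37 (SE 0.087, adjusted p = 0.0167). MNT was also slightly higher in A549 controls than in 293T controls (0.17, adjusted p = 0.0196), a call lost without 293T control replicate 2 or 3 (adjusted p 0.0640 to 0.0759) and after rescaling to a common sum (0.083, adjusted p = 0.290).

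MLX (chr17:42567100-42573203, plus strand) rose with exposure in both lines. It had 29.6, 28.9 and 28.4 FPKM in exposed A549 libraries, against 24.6, 25.2 and 23.7 FPKM in A549 controls. It had 27.2, 28.3 and 29.7 FPKM in exposed 293T libraries, against 26.7, 25.7 and 26.1 FPKM in 293T controls. The groups did not overlap in either line. The rise was 1.18-fold in A549 (log2 difference 0.23, SE 0.038, adjusted p = 4.46e-04, limma). In 293T it was 1.09-fold (0.11, SE 0.038, adjusted p = 0.0315), and this call was lost without exposed replicate 2 or 3 or control replicate 2 or 3 of 293T (adjusted p 0.0682 to 0.101), with mitochondrially encoded genes out of the scaling (0.0696) and with each line fitted alone (0.0585). The rises of MLX differed by 0.12 (95% interval 0.0042 to 0.24, adjusted p = 0.168). MLX shares 894 bases with PSMC3IP on the other strand, at 15.7 to 28.95 FPKM, so its value is uncertain where counting ignored the strand. MLX was 1.07-fold lower in A549 controls than in 293T controls (-0.090, adjusted p = 0.0378), a direction that turned under quantile normalization (0.039) and median centring (0.0023).

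**Figure D2:**
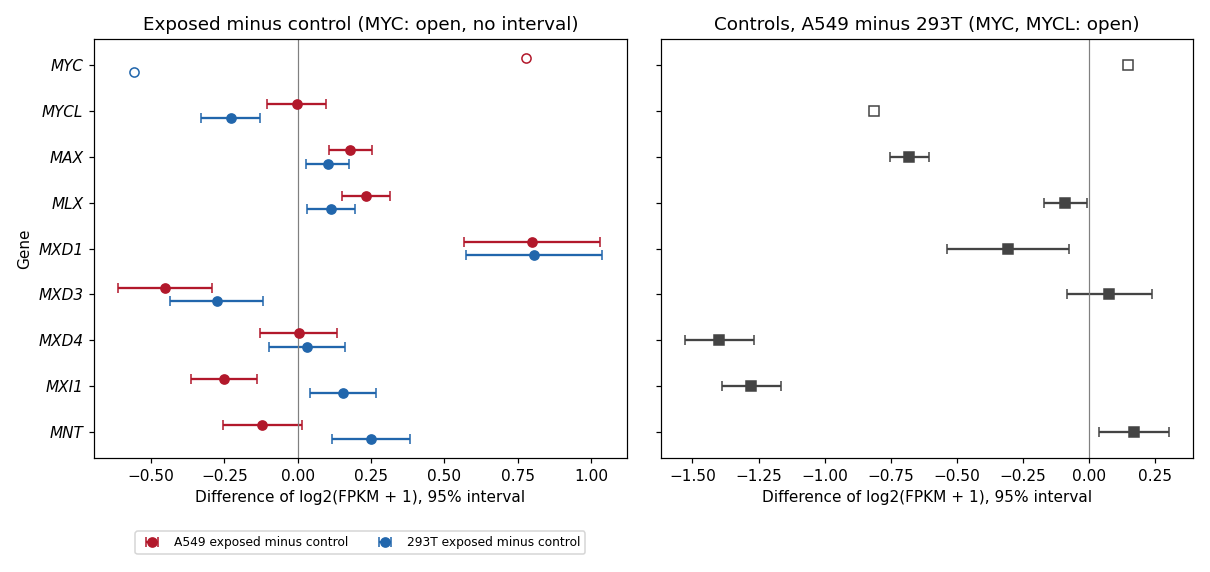
Differences of log2(FPKM + 1) for the 9 members that passed the filter (x axis), with 95% intervals from limma; left, exposed minus control in A549 (red) and 293T (blue), right, A549 controls minus 293T controls, where MYC and MYCL (open squares) have no interval. MXD1 lies right of 0 in both lines and MXD3 left of 0, MXI1 lies on opposite sides, and MYC (open circles, without interval) is at 0.78 in A549 and -0.56 in 293T.

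Counted without MYC, of the 8 other members tested, 3 rose in A549 (MAX, MLX and MXD1), 2 fell (MXD3 and MXI1) and 3 did not pass the test. The background was high: 40.2% of all genes tested were called in A549, 13.3% higher and 26.9% lower. The split depended on the scaling: 1837 genes were higher and 3711 lower in A549 as deposited, and 2695 and 2525 after median centring. In 293T, 5 of the 8 rose (MAX, MLX, MNT, MXD1 and MXI1), 2 fell (MXD3 and MYCL) and 1 did not pass, where 38.0% of all genes were called, 13.7% higher and 24.2% lower. These 7 calls numbered 4 with mitochondrially encoded genes out of the scaling, where 1577 genes were higher and 3781 lower, and 4 without 293T exposed replicate 2 (1447 and 2500) and without 293T control replicate 2 (1470 and 2717), against 1897 and 3346 as deposited. The difference between the lines was called for MYCL (higher) and for MNT and MXI1 (lower) among the 8, where 12.5% of all genes were called, 5.51% higher and 7.03% lower. The median log2 difference of the 8 was -0.00041 in A549 and 0.11 in 293T, beside -0.037 and -0.031 over all genes. MYCL passed the filter only through its 293T libraries, and its A549 levels were too low for this scale to show a change.

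Between the controls of the lines most members differed. Of the 7 members without MYC and MYCL, 1 was higher in A549 (MNT), 5 were lower (MAX, MLX, MXD1, MXD4 and MXI1) and MXD3 did not pass, with 88.3% of all genes called, 32.4% higher and 55.9% lower. Their median log2 difference was -0.31, beside -0.25 over all genes; the all-gene median was -0.41 after rescaling to a common sum, -0.15 after quantile normalization and -0.16 after median centring. MXD4 and MXI1, at -1.40 and -1.28, lay beyond that shift, and MYC, at 0.15, lay on its other side. MXD1 was 1.41-fold lower in A549 controls (-0.31, adjusted p = 0.0164), close to the all-gene median, and the call was lost under quantile normalization (adjusted p = 0.0594) and median centring (0.0811).

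The order of the members by level differed between the lines. In exposed A549 and in A549 controls MYC was highest, followed by MLX, MAX and MXD4, each apart from the next. In exposed 293T and in 293T controls MLX and MAX were highest and overlapped. MYC came next in 293T controls, apart from MXD4 below it, whereas in exposed 293T its libraries overlapped those of MXD4. MXD1 was the lowest of the repressors in the controls of both lines, and with exposure it overlapped MNT and MXI1 in A549 and MNT in 293T. MYCL and MYCN were lowest in each group.

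Summed by role, the activators MYC, MYCL and MYCN had 45.9 ± 2.46 FPKM in exposed A549 and 26.3 ± 0.409 FPKM in A549 controls, and 16.3 ± 0.554 FPKM in exposed 293T and 24.5 ± 1.04 FPKM in 293T controls (SD, n = 3 each). MYC made up nearly all of these sums. The 5 repressors had 16.9 ± 0.328 FPKM in exposed A549 and 17.4 ± 0.830 FPKM in A549 controls, which overlapped. They had 37.6 ± 1.87 FPKM in exposed 293T and 33.9 ± 0.452 FPKM in 293T controls, with every exposed library above every control. The ratio of activators to repressors was 2.72 ± 0.166 in exposed A549 and 1.51 ± 0.0953 in A549 controls, and 0.436 ± 0.0352 in exposed 293T and 0.724 ± 0.0210 in 293T controls. MXD1's share of the repressors differed as well. MXD1 gave 18.7% ± 4.50 of the repressor sum in exposed A549 and 7.83% ± 0.171 in A549 controls, and 10.95% ± 0.963 in exposed 293T and 5.67% ± 0.175 in 293T controls. These are mRNA levels, and sums and ratios over members were not tested.

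**Figure D3:**
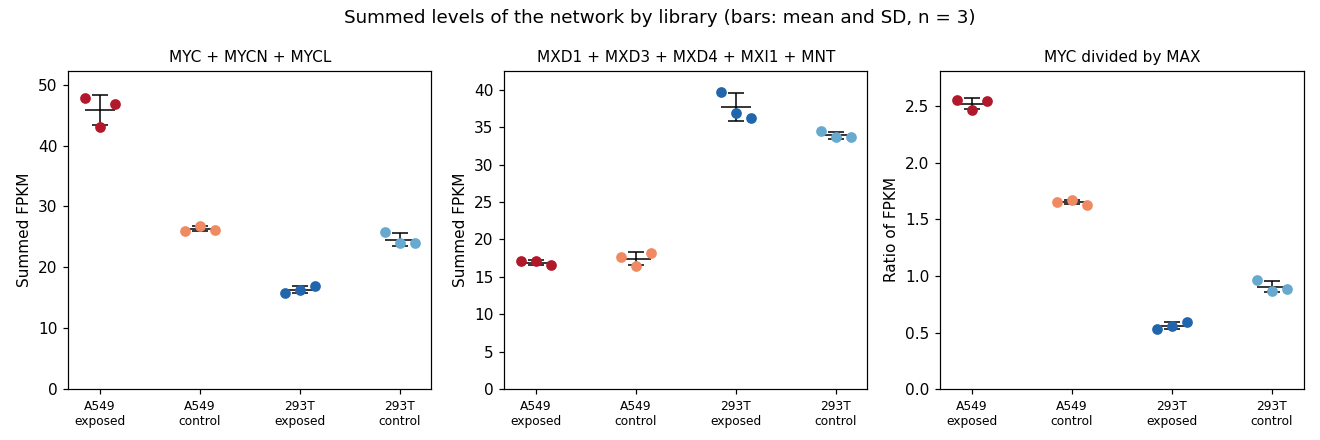
Summed FPKM of the 3 activators (left) and the 5 repressors (middle) and the ratio of MYC to MAX (right) by group (x axis); points are libraries and black bars the mean and SD (n = 3). The repressor sum overlaps between exposed and control A549 (16.9 and 17.4 FPKM) and is higher in exposed than in control 293T (37.6 and 33.9 FPKM), while the ratio of MYC to MAX is 2.52 and 1.65 in A549 and 0.561 and 0.906 in 293T.

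The wider network comprised MGA, MLXIP and MLXIPL. MGA, a large MAX partner, rose in both lines, with log2 differences of 0.28 in A549 (adjusted p = 6.01e-04) and 0.27 in 293T (adjusted p = 9.08e-04). It had 7.17 FPKM in exposed A549 and 5.73 FPKM in A549 controls, and 10.9 FPKM in exposed 293T and 8.85 FPKM in 293T controls. MLXIP, which encodes MondoA, fell in A549 (-0.31, adjusted p = 3.45e-05) and did not pass in 293T (0.062, adjusted p = 0.173), and this difference between the lines was called (-0.38, adjusted p = 7.86e-04). MLXIPL, which encodes ChREBP, fell in A549 (-0.23, adjusted p = 0.0188) at a low level, 0.502 FPKM in exposed cells and 0.759 FPKM in controls. Of 4 targets of MondoA and MLX, TXNIP, the thioredoxin inhibitor that answers to glucose, fell in A549 (-0.22, adjusted p = 0.0113) and rose in 293T (0.34, adjusted p = 0.00122), and its difference between the lines was -0.56 (adjusted p = 0.00185). Its paralog ARRDC4 fell in 293T (-0.26, adjusted p = 0.00845), KLF10 rose there (0.28, adjusted p = 0.0326), and HBP1 fell in A549 (-0.23, adjusted p = 0.0105). The falls of TXNIP and HBP1 in A549 depended on the scaling: 1 target fell after median centring and 0 under quantile normalization. In 293T, 2 targets rose and 1 fell under each of these scalings too. Of the wider network, 1 gene rather than 2 fell in A549 under quantile normalization and after median centring.

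Genes known as targets of MYC were described as lists, each count to be read beside 13.3% higher and 26.9% lower over all genes in A549 and 13.7% higher and 24.2% lower in 293T. Each list median is to be read beside the all-gene medians of -0.037 in A549 and -0.031 in 293T. Genes are named by a rule on their adjusted p, and where a count is 5 or fewer others in it may be named too, chosen after their values were seen. Of 35 genes of ribosome biogenesis, 3 rose in A549 (BYSL, POLR1B and PPAN) and 13 fell, with a median log2 difference of -0.064, and none rose in 293T while 16 fell, with a median of -0.12. The medians stayed below 0 under quantile normalization, rescaling to a common sum, median centring (-0.0085 in A549) and scaling without mitochondrially encoded genes. MYBBP1A, a nucleolar protein, fell, with log2 differences of -0.39 in A549 (adjusted p = 3.46e-04) and -0.44 in 293T (adjusted p = 2.54e-04). NOC4L, needed for the small ribosomal subunit, fell, with log2 differences of -0.36 in A549 (adjusted p = 6.83e-04) and -0.37 in 293T (adjusted p = 8.13e-04). BOP1, needed for the large subunit, fell, with log2 differences of -0.22 in A549 (adjusted p = 0.00119) and -0.34 in 293T (adjusted p = 1.30e-04). NPM1, an abundant nucleolar chaperone, had differences of -0.021 in A549 (adjusted p = 0.726) and -0.064 in 293T (adjusted p = 0.221). In A549 these falls stood beside a MYC level above that of the controls, and in 293T beside one below it.

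Of 25 metabolic targets, 1 rose (PAICS) and 7 fell in A549, and 3 rose (among them PPAT and SHMT2) and 6 fell in 293T. The medians were -0.048 in A549 and -0.0014 in 293T, beside -0.037 and -0.031 over all genes; both turned above 0 under median centring, and in 293T also after rescaling to a common sum. FASN, the fatty acid synthase, fell, with log2 differences of -0.44 in A549 (adjusted p = 3.63e-06) and -0.31 in 293T (adjusted p = 8.42e-05). CAD, which starts pyrimidine synthesis and is a standard MYC target, fell, with log2 differences of -0.21 in A549 (adjusted p = 2.30e-04) and -0.23 in 293T (adjusted p = 2.29e-04). TFRC, the transferrin receptor, had 80.9 FPKM in exposed A549 and 83.6 FPKM in A549 controls, and 42.4 FPKM in exposed 293T and 79.7 FPKM in 293T controls. It fell in 293T (-0.89, adjusted p = 1.12e-07), did not pass in A549 (-0.046, adjusted p = 0.351), and differed between the lines by 0.85 (adjusted p = 6.35e-06).

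Of 22 tested cell cycle and growth targets, 2 rose (CKS1B and CKS2) and 9 fell in A549, with a median of -0.077. In 293T, 5 rose (CCND2, CCNE1, CDC25A, CKS2 and E2F3) and 3 fell (EIF2S1, EIF4G1 and MCM7), with a median of -0.030. The medians over all genes were -0.037 in A549 and -0.031 in 293T. Both list medians stayed below 0 under each of the 4 scalings, but in 293T the all-gene median did so too. Under median centring 3 rose and 6 fell in A549, and 7 rose and 1 fell in 293T. The 293T list median was then -0.0028, beside -0.0037 over all genes. CKS2, a partner of cyclin-dependent kinases, had 292 FPKM in exposed A549 and 167 FPKM in A549 controls, and 257 FPKM in exposed 293T and 189 FPKM in 293T controls. It rose, with log2 differences of 0.80 in A549 (adjusted p = 1.64e-06) and 0.44 in 293T (adjusted p = 1.43e-04). E2F2, an activator of S phase genes, fell in A549 (-0.67, adjusted p = 2.74e-05) and did not pass in 293T (0.14, adjusted p = 0.137). E2F3, of the same family, rose in 293T (0.54, adjusted p = 2.82e-05) and did not pass in A549 (0.045, adjusted p = 0.519). Both differences between the lines were called, at -0.80 for E2F2 (adjusted p = 6.00e-04) and -0.50 for E2F3 (adjusted p = 0.00105).

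A list of 16 genes was taken as repressed by MYC with its partner ZBTB17 (MIZ1). It was chosen with earlier results of these data known, and its genes were not checked as targets in these cells. In A549, 3 rose (CDKN1B, CEBPD and SESN2) and 3 fell (BTG2, CEBPA and GADD45A), with a median of 0.0042, which turned below 0 with mitochondrially encoded genes out of the scaling. In 293T, 8 rose and 1 fell (CEBPA), with a median of 0.23 that stayed above 0 under each of the 4 scalings. CDKN1A, which encodes the cyclin-dependent kinase inhibitor p21, had 80.3 FPKM in exposed A549 and 75.4 FPKM in A549 controls, and 24.1 FPKM in exposed 293T and 14.01 FPKM in 293T controls. It rose in 293T (0.74, adjusted p = 5.19e-06), did not pass in A549 (0.090, adjusted p = 0.171), and differed between the lines (-0.65, adjusted p = 3.21e-04). SESN2, a stress-induced regulator of growth signalling, rose, with log2 differences of 0.33 in A549 (adjusted p = 0.00976) and 0.63 in 293T (adjusted p = 2.77e-04). BTG1, an antiproliferative gene, rose in 293T (0.45, adjusted p = 1.65e-04) with -0.14 in A549 (adjusted p = 0.0785). Its relative BTG2 fell in A549 (-0.74, adjusted p = 2.82e-04) with 0.21 in 293T (adjusted p = 0.156).

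**Figure D4:**
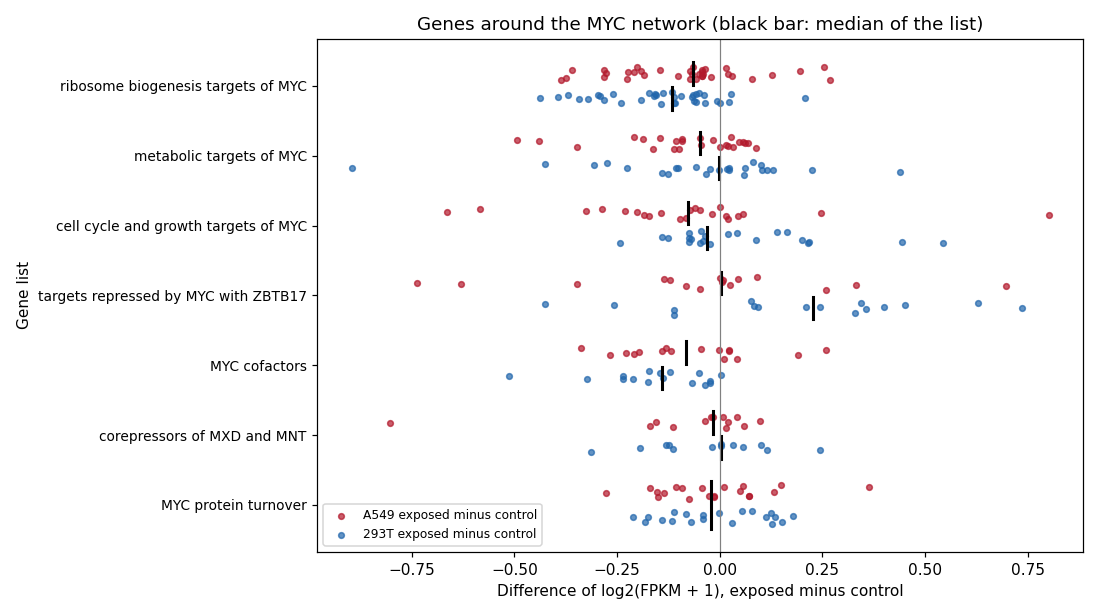
Differences of log2(FPKM + 1), exposed minus control (x axis), for genes of 7 lists around the network (y axis); each point is a gene tested, red for A549 and blue for 293T, and black bars are list medians. The list taken as repressed by MYC with ZBTB17 has its median at 0.0042 in A549 and 0.23 in 293T, and ribosome biogenesis genes have medians of -0.064 and -0.12.

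The mRNAs of proteins that MYC and MXD recruit were examined as well. Of 16 MYC cofactors, 2 rose (BPTF and KAT2A) and 6 fell in A549, with a median of -0.081, and none rose and 10 fell in 293T, with a median of -0.14. The medians over all genes were -0.037 in A549 and -0.031 in 293T. Both list medians stayed below 0 under each of the 4 scalings. HCFC1, a chromatin cofactor that binds MYC, fell, with log2 differences of -0.34 in A549 (adjusted p = 4.06e-04) and -0.51 in 293T (adjusted p = 5.50e-05). EP400, a chromatin remodeller, fell, with log2 differences of -0.23 in A549 (adjusted p = 6.03e-04) and -0.32 in 293T (adjusted p = 1.08e-04). SMARCA4, the remodelling ATPase BRG1, is mutated in A549, and its mRNA was at 2.68 FPKM in A549 controls and 55.1 FPKM in 293T controls. Of 13 corepressors, none rose and 3 fell in A549 (HDAC3, SIN3A and SIN3B), while 2 rose (ARID4B and HDAC1) and 3 fell (HDAC3, RBBP7 and SIN3A) in 293T; their medians, -0.016 in A549 and 0.0035 in 293T, changed sign between scalings. SIN3A, the scaffold that MXD proteins bind directly, had 9.25 FPKM in exposed A549 and 16.8 FPKM in A549 controls, and 16.02 FPKM in exposed 293T and 20.1 FPKM in 293T controls. It fell, with log2 differences of -0.80 in A549 (adjusted p = 5.38e-06) and -0.31 in 293T (adjusted p = 0.00355), and it fell by more in A549 (-0.49, adjusted p = 0.00680).

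Of 20 genes that act on MYC protein stability, 3 rose in A549 (CIP2A, FBXL14 and USP37) and 5 fell (FBXO32, OTUB1, STUB1, TRIM32 and TRPC4AP). In 293T, 4 rose (FBXW7, GSK3B, PPP2R5A and SET) and 5 fell (FBXO32, GSK3A, HUWE1, OTUB1 and STUB1). The medians were -0.021 in each line and turned above 0 under median centring, and in 293T also under quantile normalization. The split turned as well: in A549, 5 were higher and 3 lower under quantile normalization and 6 and 1 under median centring, and in 293T 5 and 3 under quantile normalization and 6 and 3 under median centring. FBXW7, the ubiquitin ligase that marks phosphorylated MYC for decay, had differences of -0.14 in A549 (adjusted p = 0.112) and 0.18 in 293T (adjusted p = 0.0440), which differed between the lines (-0.31, adjusted p = 0.0405). GSK3B, a kinase that phosphorylates MYC for recognition by FBXW7, rose in 293T (0.15, adjusted p = 0.00228) with 0.070 in A549 (adjusted p = 0.0862). STUB1, a ubiquitin ligase that works with chaperones, fell, with log2 differences of -0.15 in A549 (adjusted p = 0.00885) and -0.17 in 293T (adjusted p = 0.00462).

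Beside MYC on chromosome 8 lies PVT1, a non-coding gene. It had 14.2 FPKM in exposed A549 and 16.3 FPKM in A549 controls, and 2.93 FPKM in exposed 293T and 3.12 FPKM in 293T controls. It did not pass in either line, with -0.19 in A549 (adjusted p = 0.0852) and -0.068 in 293T (adjusted p = 0.562), and was higher in A549 controls than in 293T controls (2.07, adjusted p = 4.02e-11). CCAT1, another non-coding gene of the region, had 2.24 FPKM in exposed A549 and 2.65 FPKM in A549 controls (log2 difference -0.17, adjusted p = 0.0798) and 0.00307 FPKM in exposed 293T, and was listed at 0 in the 293T controls. Among 11 other tested factors that bind E-boxes, 2 rose (BHLHE40 and MITF) and 3 fell (SREBF1, TFEB and USF1) in A549, and 1 rose (CLOCK) and 3 fell (HEY1, SREBF1 and TFEB) in 293T, with medians of 0.022 and -0.049. SREBF1, the regulator of lipid synthesis, fell, with log2 differences of -0.49 in A549 (adjusted p = 3.57e-05) and -0.34 in 293T (adjusted p = 5.68e-04).

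The genes whose log2(FPKM + 1) followed that of MYC most closely over the 12 libraries were EBAG9 (Pearson r = 0.951), POLR3D (0.944), MKNK2 (0.941), MACF1 (0.940) and TRIB1 (0.940). The points share 4 groups, so these values mostly describe the pattern of group means. TRIB1, a pseudokinase gene, had 19.7 FPKM in exposed A549 and 16.6 FPKM in A549 controls, and 11.99 FPKM in exposed 293T and 15.3 FPKM in 293T controls. MKNK2, which encodes a kinase of the cap-binding factor eIF4E, had 26.5 FPKM in exposed A549 and 19.6 FPKM in A549 controls, and 17.4 FPKM in exposed 293T and 19.6 FPKM in 293T controls. EBAG9, POLR3D and TRIB1 lie on chromosome 8, as MYC does. The share of all genes tested that lie on this chromosome was not counted, and a role of position was not tested. By the smaller of the 2 sizes of opposite differences, the genes next after MYC were MIR503HG (0.49), TFAP2C (0.39), LINC01503 (0.32) and TAF1A-AS1 (0.30). Exposed and control A549 libraries overlapped for LINC01503 and TAF1A-AS1. TFAP2C, a transcription factor of the AP-2 family, had 11.5 FPKM in exposed A549 and 7.33 FPKM in A549 controls, and 1.78 FPKM in exposed 293T and 2.65 FPKM in 293T controls.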

How the data were processed

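Total RNA was poly(A)-selected and sequenced, per the labels' protocols. The authors deposited one table of FPKM for 12 libraries; fastp, HISAT2 and HTSeq and the build GRCh38 are named in the submitters' processing notes, and their versions, the annotation and the use of strand are not given in the sources used here. No count table was used. The FPKM values of 100% of the 26348 genes were whole multiples of 1 read within a tolerance of 0.01, which gave read counts and depths; intervals and floors cover counting error only where they rest on reads.

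From the deposited FPKM, log2(FPKM + 1) was fitted with limma 3.58.1 in R 4.3.3 (4 group means over 12 libraries, intensity trend, 8 residual degrees of freedom, two-sided), with Benjamini-Hochberg adjustment over the 13811 genes with at least 0.5 FPKM in at least 3 libraries; 12537 genes were removed. The fit was tested on simulated data. The members and the gene lists were chosen with earlier results of these data known. Named genes are each member, the 3 called genes per list with the smallest adjusted p per contrast, and the 5 genes most like MYC by each of 2 measures. Alternatives comprised another pseudocount (0.1), filters, scalings, variance models, limma-voom on recovered reads (a gene whose reads share a common factor in every library would be undercounted), a replicate block, a threshold of 0.01 and leaving out each library. The planned comparison of member proteins was not made, and 1 result is not reported here. Unlike in the planned design, counts of members called leave out MYC, whose values chose the family, and, between the controls, MYCL.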

Additional observations from a re-analysis of the deposited data

Results flagged for a closer look

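Among the 8 members tested without MYC, exposed minus control was called as different between A549 and 293T for MXI1, MNT and MYCL. Over all genes, 12.5% were called for this difference. Values are A549 minus 293T on the log2(FPKM + 1) scale. For MXI1 the difference was -0.40, for MNT -0.37 and for MYCL 0.22, each called by limma. The call of MYCL held under 6 of 22 alternatives. For MYC the difference was 1.34, and every exposed library was above the controls in A549 and below them in 293T. The difference of MYC was not tested because the family was chosen with it in view. At MYCL's level in A549 the scale compresses any change, so its difference mostly restates the fall in 293T. At an adjusted p of 0.01, MXI1 kept its call and MNT and MYCL did not. Of the 167 genes tested on the lists other than those of cell line markers, 4.79% were called higher and 10.8% lower for this difference, beside 5.51% and 7.03% of all genes. These were 8 above 0, CEBPD (0.95), TFRC (0.85), BHLHE40 (0.45), CKS2 (0.36), HEY1 (0.33), KAT2A (0.33), POLR1B (0.20), BPTF (0.19), and 18 below 0, BTG2 (-0.95), E2F2 (-0.80), CCNE2 (-0.80), CDKN1A (-0.65), GADD45A (-0.59), BTG1 (-0.59), TXNIP (-0.56), CCNE1 (-0.50), E2F3 (-0.50), SIN3A (-0.49), KLF10 (-0.46), MLXIP (-0.38), UNG (-0.35), HBP1 (-0.34), CDKN2B (-0.32), FBXW7 (-0.31), TRIM32 (-0.29), MCM4 (-0.16).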

How the results depend on the processing

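At an adjusted p of 0.01, 3586 genes were called in A549 (5548 at 0.05), 3186 in 293T (5243) and 627 for the difference between the lines (1732). Of 8 members other than MYC, 3 were called in 293T at 0.01 (7 at 0.05) and 1 for the difference (3). Without MYCL, 3 of 7 were called between the controls at 0.01 and 6 at 0.05, where 88.3% of all genes were called at 0.05. The share of all genes called between the controls at 0.01 is not given here. The members called in 293T numbered 4 with mitochondrially encoded genes out of the scaling (1577 genes higher and 3781 lower) and 4 with a replicate block (1565 and 2894), which gave 1047 genes for the difference. Leaving out one library gave 4 to 7 members called in 293T (3947 to 5409 genes), 5 to 6 in A549 (4517 to 5723), 2 to 3 for the difference (1196 to 2017) and 4 to 7 between the controls (11929 to 12260). With the block, the contrast of the controls is taken at the level of replicate 1 and not between group means. Its calls between the controls are therefore not compared with the others. The replicate numbers gave no pairing: deviations of same-numbered exposed and control libraries correlated at -0.14 to 0.0001 in 6 pairs, and 0 of 6 exposed libraries correlated best with their own number. Median centring gave 2695 genes higher and 2525 lower in A549 and 2271 and 2720 in 293T, quantile normalization 2400 and 2786 in A549 and 2403 and 2620 in 293T, against 1837 and 3711 in A549 and 1897 and 3346 in 293T as deposited. Some signs turned. The difference between the lines for MXD1 was 0.072 with a pseudocount of 0.1, 0.039 under quantile normalization, 0.023 after rescaling to TPM, 0.020 after median centring and 0.088 in limma-voom, and -0.16 to 0.073 without one library. MYCL in A549 was 0.052 after median centring and -0.025 to 0.016 without one library. MXD4 was -0.030 in A549 with mitochondrially encoded genes out of the scaling and -0.048 to 0.048 without one library, -0.014 to 0.075 in 293T without one library, and 0.0047 for the difference under quantile normalization and -0.080 to 0.017 without one library. Between the controls MXD3 was -0.028 and GSK3B -0.031 after rescaling to TPM, MLX 0.039 under quantile normalization and 0.0023 after median centring, and RRP12 0.014 under quantile normalization. MXD3 between the controls was called without A549 control replicate 2 (0.16, adjusted p = 0.0430). It was also called in limma under quantile normalization (0.16, adjusted p = 0.0346) and after median centring (0.17, adjusted p = 0.0303). The cause of these changes was not tested.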
